A study of Drosophila melanogaster with 14 samples.

Results

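The change described here is the one between embryonic stages 10-13 and 14-17 in mesodermal nuclei of Drosophila melanogaster, taken across all genes. It rests on 4 of the 14 libraries of the series, 2 labelled mesoderm at stages 14-17 and 2 labelled mesoderm at stages 10-13. All 4 carry the genotype label twi-INTACT. The neuronal libraries used for comparison are labelled elav>INTACT, with 2 at stages 14-17 and 2 at stages 10-13. INTACT is a method in which a tag on the nuclear envelope of 1 cell type lets its nuclei be pulled out of a whole embryo, and total RNA of those nuclei was sequenced. The labels name twi, an early mesodermal regulator, and elav, a neuronal gene, but do not describe the constructs or the purity of the nuclei. They also do not say that the replicates are separate collections of embryos, so the p-values may measure technical spread. The other 6 libraries carry GFP-tagged Ubx and were used only for a check of genes listed at 0.

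The mesoderm of the fly embryo gives rise to the body wall muscles, the gut muscles, the heart, the fat body and the blood cells. Between the early and the late window, myoblasts stop dividing and fuse into syncytial muscles, which then assemble sarcomeres, attach to tendon cells of the epidermis and receive motor axons. The heart tube closes over the same period, and neighbouring epidermal and tracheal cells begin to secrete cuticle. In RNA of a bulk sample, fewer cells of a type and less RNA per cell cannot be told apart.

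The libraries held 14716646 and 12970816 assigned counts at stages 14-17, and 16578996 and 17905141 at stages 10-13. Levels are given as CPM, read counts scaled to a common library total with edgeR's TMM factors. The floor of detection was taken as 3 counts, or 0.204 and 0.231 CPM at stages 14-17 and 0.181 and 0.168 CPM at stages 10-13. These floors leave out the TMM factors, which were 0.8558 and 0.8573 at stages 14-17 and 0.9681 and 0.9596 at stages 10-13. On the scale of the levels the floors are therefore somewhat higher. Of 14156 genes listed, 2534 had no count in any of the 4 libraries. Position bears on these zeros. Among genes with at least 3000 counts over the 3 control libraries with tagged Ubx, 149 of 168 that lie wholly inside another gene (89%) had no count in any of the 8 libraries fitted here, while the same held for 4 of 3370 that do not (0.12%). A gene listed at 0 is therefore not read as one without expression. Pearson's r between the replicates, across genes on the log2(CPM + 1) scale, was 0.993 at stages 14-17 and 0.990 at stages 10-13. Genes are not independent replicates, so these values only describe the agreement. Of the 295 genes that differed by over 2-fold between the replicates of stages 10-13, 260 were higher in replicate 1. At stages 14-17 it was 109 genes, of which 86 were higher in replicate 1. How many of these are cuticle genes was not counted. The summed levels of 2 cuticle families at stages 10-13 were higher in replicate 1, at 403 against 119 CPM for Osiris and 181 against 26.4 CPM for Tweedle genes. Where leaving out single libraries changes a count of genes by over 1.5 times, the count or the median of the list without them is therefore also given.

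The labelled tissue was checked against 6 defining markers. twi, whose span another gene overlaps so that its reads are uncertain, had 879 and 799.6 CPM at stages 14-17, against 371 and 437 CPM at stages 10-13. Mef2, the myogenic MADS-box factor, had 786 and 746 CPM at stages 14-17, against 1277 and 1003 CPM at stages 10-13. Both were present in every library, and the summed level of the 6 markers was 3254 and 3299 CPM at stages 14-17, against 3067 and 2549.6 CPM at stages 10-13. Other cell types were represented too. The 6 neuron markers summed to 1037 and 783 CPM at stages 14-17, against 216 and 240.1 CPM at stages 10-13, and all 5 that could be tested were higher. Of these markers elav stayed near the floor in all 4 libraries, at 0.238 and 0.27 CPM at stages 14-17 and 0.249 and 0.175 CPM at stages 10-13, but other genes overlap nearly all of it and its count is uncertain. The 6 epidermis markers summed to 1033 and 1104 CPM at stages 14-17 and 912 and 1162 CPM at stages 10-13, with 4 higher and 1 lower. The tracheal markers, of which 4 could be tested, summed to 1912 and 1844 CPM at stages 14-17 and 807 and 970.2 CPM at stages 10-13, with 2 higher. Glial markers summed to 86.6 and 72.6 CPM at stages 14-17 and 115 and 126 CPM at stages 10-13, with moody, overlapped over its whole span, listed at 0 in all 4 libraries. The 5 blood cell markers summed to 487 and 525 CPM at stages 14-17 and 349.6 and 377 CPM at stages 10-13. The fat body sum, 7458 and 6921 CPM at stages 14-17 and 2481 and 3198 CPM at stages 10-13, was almost all apolpp, the lipophorin precursor.

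Of 10549 genes tested, 5027 (47.7%) passed the quasi-likelihood test of edgeR at 5%, with p-values adjusted over all tested genes after Benjamini and Hochberg. There were 2629 (24.9%) higher at stages 14-17 and 2398 (22.7%) lower, and the median log2 change of all tested genes was 0.00. For each of the 5027 the 2 libraries of 1 stage lay wholly above the 2 of the other. The test that called these genes used the same values, so their separation is no further evidence of a change. Without 1 mesoderm library the number of higher genes was between 1712 and 1981, lowest without replicate 1 of stages 14-17, and without 1 neuronal library it was between 2369 and 3223. The number of lower genes was 1150 without replicate 1 and 1581 without replicate 2 of stages 14-17, and 1531 without replicate 1 and 1514 without replicate 2 of stages 10-13. The rises were larger than the falls: the median log2 change was 2.19 among higher genes and -1.16 among lower ones, and 705 genes rose by a log2 of 3 or more while 148 fell by as much. Genes that rose took 34.8% and 33.2% of all counts at stages 14-17, against 10.7% and 10.4% at stages 10-13. Genes that fell took 11.6% and 12.7% of the counts at stages 14-17, against 30.1% and 29.4% at stages 10-13.

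**Figure D1:**
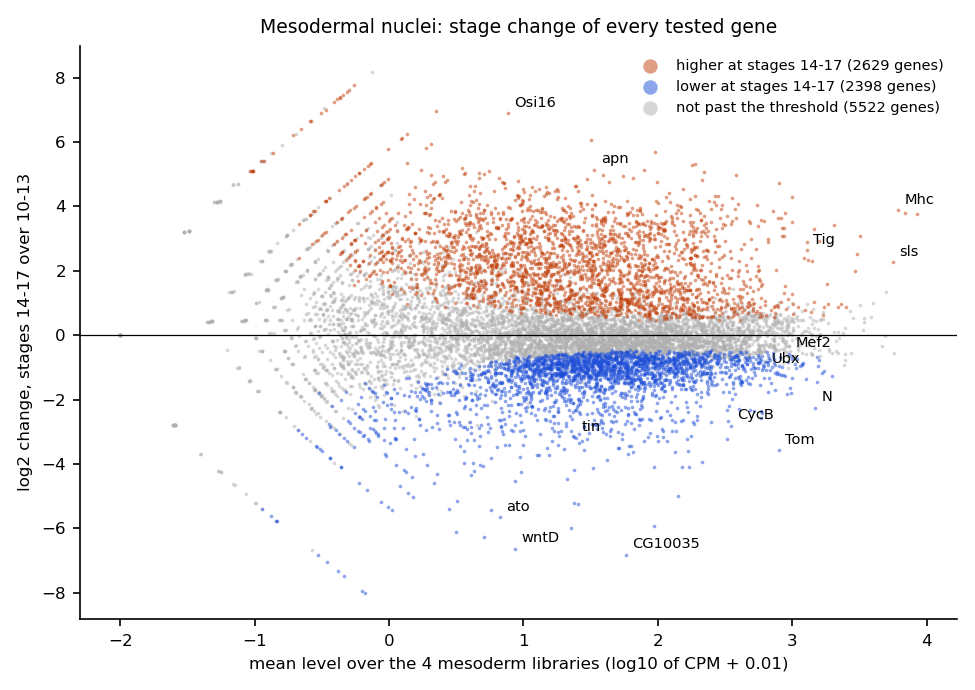
Each point is 1 of the 10549 tested genes, with its mean level over the 4 mesoderm libraries on the x axis (log10 of CPM + 0.01) and its log2 change, stages 14-17 over 10-13, on the y axis. Colours mark the 2629 higher and 2398 lower genes, and the highest points reach farther from 0 than the lowest ones over most of the range. The thin streaks at low levels are genes with no or few counts at 1 of the stages.

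Sarcomere genes carried the largest gains in level. Mhc, the muscle myosin heavy chain, had 11837 and 11273 CPM at stages 14-17, against 926 and 628 CPM at stages 10-13. Both late libraries lay far above both early ones, a log2 change of 3.89 ± 0.30 (SE; edgeR adjusted p = 0.000293). All 8 thick filament genes tested rose, with a median log2 change of 3.66 and a summed level of 31205 and 32896 CPM at stages 14-17, against 2689 and 2173 CPM at stages 10-13. bt, which encodes the giant kinase projectin of the thick filament, had 14479 and 17152 CPM at stages 14-17, against 1262 and 1097 CPM at stages 10-13. The light chain genes Mlc1 and Mlc2 rose by 3.58 and 3.87 on the log2 scale, close to the change of the heavy chain.

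The thin filament followed the same course, with 11 of 14 tested genes higher, none lower and a median log2 change of 2.75. up, which encodes troponin T, had 11832 and 13744 CPM at stages 14-17, against 1008 and 817 CPM at stages 10-13, a log2 change of 3.81 ± 0.46 (edgeR adjusted p = 0.000769). Tm2, a muscle tropomyosin, and TpnC73F, a troponin C, rose by 3.55 and 3.09. Act57B, a muscle actin, rose by 2.93 ± 0.43, with 2878 and 2738 CPM at stages 14-17 and 439 and 299 CPM at stages 10-13. Per kilobase of exon, up gained most of all genes, with 5055 CPM per kb at stages 14-17 against 361 at stages 10-13. Act57B came next at 1629 against 214 CPM per kb, and Mhc followed at 1276 against 85.8 CPM per kb.

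Of 11 genes of the Z-disc and the elastic and linker giants, 8 rose and none fell, with a median log2 change of 2.34. sls, the titin-like protein that spans from the Z-disc to the thick filament, had 8279 and 10241 CPM at stages 14-17, against 1720.3 and 2153 CPM at stages 10-13. Its log2 change of 2.26 was below that of each thick filament gene named above, and its early level was above theirs. Msp300, a nesprin that links nuclei to the cytoskeleton, rose by 2.51 and Actn, the alpha-actinin of the Z-disc, by 2.34. Mlp60A, a small LIM protein of muscle, rose by 3.63, with 498 and 577 CPM at stages 14-17 against 58.5 and 28.6 CPM at stages 10-13.

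Genes of excitation and calcium handling changed less: 7 of 11 rose, 1 fell and the median was 0.89. The 2 with the smallest adjusted p encode parts of the membrane system that carries the action potential into the fibre. Amph, the amphiphysin of the transverse tubules, had 655 and 639 CPM at stages 14-17, against 165 and 149 CPM at stages 10-13. jp, a junctophilin whose reads are uncertain because other genes overlap it, rose by 3.93. Orai, the store-operated calcium channel, was the 1 that fell, with 50.6 and 52.6 CPM at stages 14-17, against 125 and 113 CPM at stages 10-13. The count of higher genes in this list is not firm: it was 3 without replicate 2 of stages 10-13 and 4 without any other single library of the 4.

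All 6 glutamate receptor genes of the muscle side of the neuromuscular junction rose, with log2 changes between 1.65 and 3.58 and a median of 3.23. GluRIIA, a receptor subunit, had 189.7 and 214 CPM at stages 14-17, against 24.3 and 18 CPM at stages 10-13. The subunit gene GluRIIC and Neto, an auxiliary protein that the receptor needs to cluster, rose by 3.37 and 3.58. In neuronal nuclei the median change of the same 6 genes over the same stages was -0.70.

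**Figure D2:**
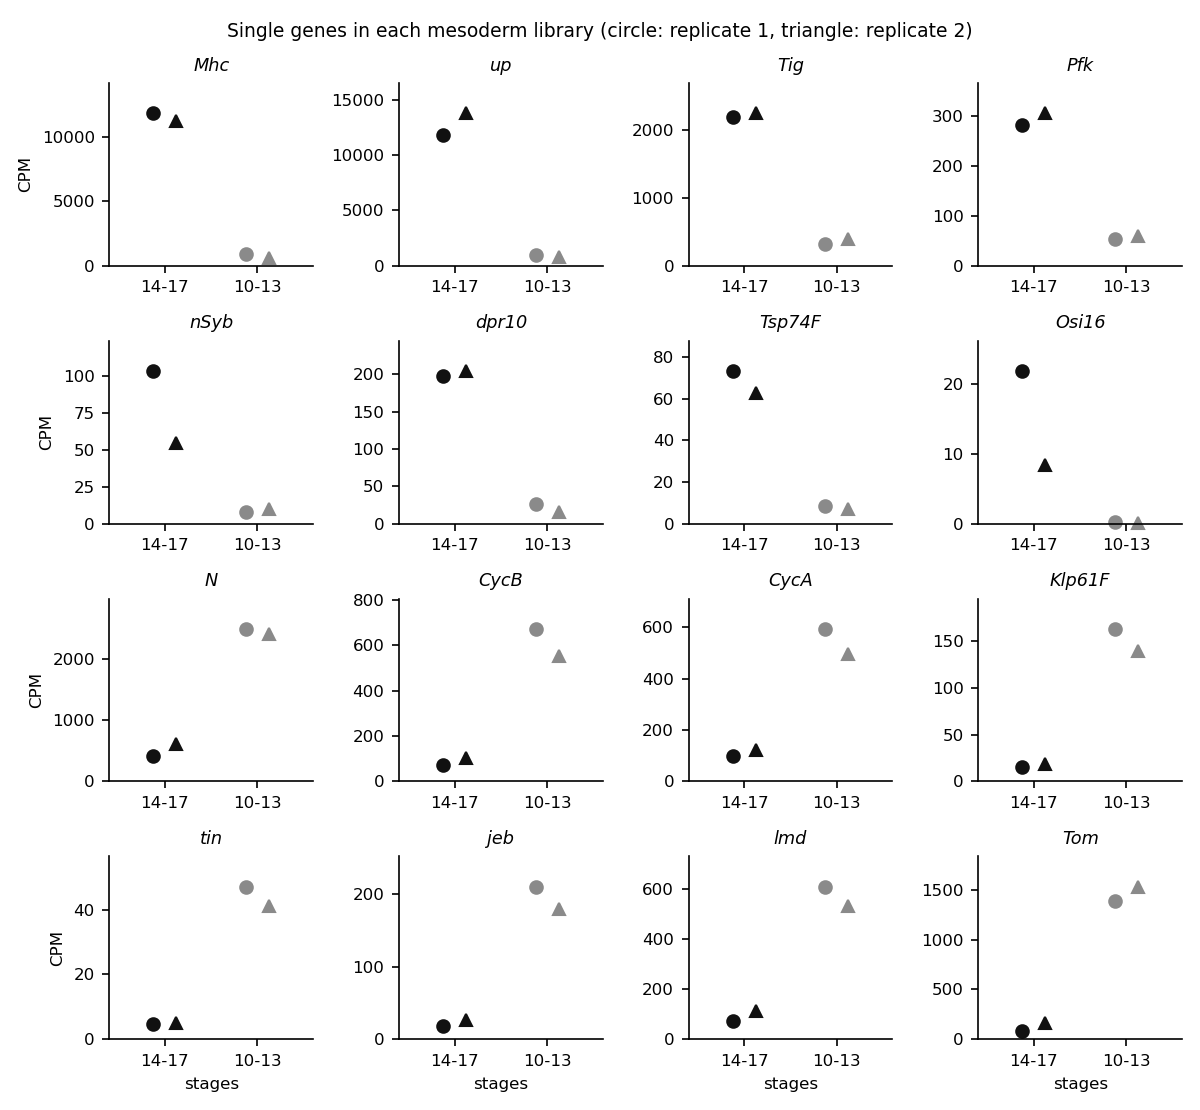
Levels in CPM, on linear axes from 0, of 16 genes in the single mesoderm libraries, with stages 14-17 left of stages 10-13 in every panel; circles are replicate 1 and triangles replicate 2. The upper 8 panels show genes that rose, from Mhc to Osi16, and the lower 8 panels genes that fell, from N to Tom. All were called on these same values, so the lack of overlap between the stages is no separate evidence.

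Muscle attachment and the matrix around muscle rose in part. Of 18 genes of tendons and integrin attachment, 12 rose and 1 fell, with a median log2 change of 0.90. Tig, which encodes the integrin ligand tiggrin at muscle attachment sites, had 2191 and 2240.2 CPM at stages 14-17, against 313 and 395 CPM at stages 10-13 (log2 change 2.65 ± 0.27, edgeR adjusted p = 0.000472). slow, which encodes a secreted protein of tendons, rose by 2.44. sr, the transcription factor that specifies tendon cells of the epidermis, rose by 2.39, with 249 and 343 CPM at stages 14-17 and 51.7 and 61.4 CPM at stages 10-13. wech, a linker of integrins to the actin cytoskeleton, was the 1 that fell, by 0.69 on the log2 scale, and was not called without replicate 1 of stages 10-13 or replicate 2 of stages 14-17.

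In the basement membrane list 7 of 11 tested genes rose and none fell, but 2 of its main proteins, collagen IV and laminin, parted. The symbol trol of this list was not matched and has no value here. Col4a1, a collagen IV chain, had 2711 and 2516 CPM at stages 14-17, against 281 and 248 CPM at stages 10-13, and its partner chain vkg had 1619.7 and 1478 CPM at stages 14-17, against 193 and 173 CPM at stages 10-13. Both changes were above a log2 of 3, at 3.30 and 3.08. The laminin chain genes LanA, LanB1, LanB2 and wb, named after their values were seen, did not pass the test. LanA had 3517 and 3576 CPM at stages 14-17, against 3212 and 3128 CPM at stages 10-13, a log2 change of 0.16. SPARC, a collagen-binding protein, rose by 2.48, and Plod, a collagen lysyl hydroxylase, by 1.36. Mp, a collagen of the multiplexin type, rose by 3.48 ± 0.48 in mesodermal nuclei, while its log2 change in neuronal nuclei was -1.84.

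Regulators of early mesoderm did not move as 1 group. Of 15 tested genes of early mesoderm and FGF reception, 2 rose (13.3%) and 6 fell (40%), against 24.9% and 22.7% of all tested genes. The median log2 change was 0.18. The count of lower genes was 5 without replicate 2 of stages 10-13, 3 without replicate 1 of stages 10-13 or replicate 2 of stages 14-17, and 2 without replicate 1 of stages 14-17. The fall was steepest in tin, the homeobox gene of the heart and dorsal mesoderm, which had 4.76 and 4.95 CPM at stages 14-17, against 47.1 and 41.2 CPM at stages 10-13 (log2 change -3.18 ± 0.32, edgeR adjusted p = 0.00046). lmd, which specifies fusion-competent myoblasts, had 70.9 and 111 CPM at stages 14-17, against 609 and 534 CPM at stages 10-13. sna, which represses ectodermal genes in the early mesoderm, fell by 1.08 and Mef2 by 0.57. sna lost its call without replicate 2 of stages 10-13 or replicate 1 of stages 14-17, and Mef2 without each library but replicate 2 of stages 10-13. twi, again with uncertain reads, rose by 1.05, a call that was lost without any 1 of the 4 libraries, and CadN2, an N-cadherin, rose by 2.42, with at most 3.3 CPM at stages 10-13. Without any 1 of the 4 libraries 1 gene of the list was higher. htl, the FGF receptor of the mesoderm, had 204 and 257 CPM at stages 14-17 and 191 and 146 CPM at stages 10-13 and did not pass (edgeR adjusted p = 0.13). how, an RNA-binding protein of muscle and tendon, did not pass either, with 1358 and 1453 CPM at stages 14-17 and 1139.7 and 877 CPM at stages 10-13 (edgeR adjusted p = 0.099).

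Of 16 myoblast fusion genes 5 were lower (31.2%, against 22.7% of all tested genes). None was higher, against 24.9% of all tested genes, and the median log2 change was -0.43. sns, the recognition receptor of fusion-competent myoblasts, had 719 and 916 CPM at stages 14-17, against 2454 and 2001 CPM at stages 10-13. Vrp1, which acts with WASp at the fusion site, had 270.0 and 296 CPM at stages 14-17, against 739.5 and 690.4 CPM at stages 10-13. sing, a membrane protein needed for fusion and another gene with uncertain reads, fell by 1.65. These 3 were the members with the smallest adjusted p, and the count of 5 held without any 1 of the 4 libraries.

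Of 22 identity factors that distinguish single muscle founders, 4 were higher and 4 lower, with a median of -0.02. That is 18.2% each way, near the 24.9% and 22.7% of all tested genes. Six4, a homeobox gene needed for muscles and other mesodermal derivatives, had 5.72 and 5.31 CPM at stages 14-17, against 51 and 41.9 CPM at stages 10-13, a log2 change of -3.07 ± 0.26 (edgeR adjusted p = 0.000293). Dr and eya fell by 0.86 and 0.87, each to a level that still exceeded 40 CPM in both late libraries. tey, a factor of ventral muscle, rose by 1.17 and ara, an Iroquois homeobox gene, by 0.94. The call of Dr was lost without replicate 1 of stages 14-17, that of eya also without replicate 2 of stages 10-13, and that of ara without replicate 1 of stages 10-13 or replicate 2 of stages 14-17. Without single libraries the higher genes numbered 1 without replicate 1 of stages 10-13 and 2 without each of the others. The lower genes numbered 1 without replicate 1 of stages 14-17 and 2 without replicate 2 of stages 10-13, and 3 without either of the others.

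Of 15 heart genes tested, 3 rose (20%) and 7 fell (46.7%), against 24.9% and 22.7% of all tested genes. The median was -0.69. The genes that fell encode regulators of cardiac and dorsal mesoderm. Doc1, a T-box gene, had 15.5 and 22.1 CPM at stages 14-17, against 93.8 and 109.8 CPM at stages 10-13. Its neighbours Doc2 and Doc3 fell by 2.24 and 2.32 and pnr, a GATA factor, by 1.85. The genes that rose encode 2 structural or membrane proteins and 1 regulator. Sur, the sulfonylurea receptor, had 204 and 163 CPM at stages 14-17, against 23.2 and 12.6 CPM at stages 10-13. prc, the collagen-like pericardin of the heart matrix, rose by 3.24, and H15, a T-box gene, rose by 2.07 with 16.1 and 12.7 CPM at stages 14-17 and 3.43 CPM in both libraries of stages 10-13.

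In the visceral mesoderm list 3 of 8 genes fell (37.5%, against 22.7% of all tested genes) and none rose. jeb, the secreted ligand that specifies founders of the visceral mesoderm, had 17.5 and 26.4 CPM at stages 14-17, against 210.2 and 180.1 CPM at stages 10-13 (log2 change -3.16 ± 0.25, edgeR adjusted p = 0.000293). Its receptor gene Alk fell by 1.09 and bin, the FoxF factor of the visceral mesoderm, by 1.10. The change of bin was 1.12 in neuronal nuclei, so that the tissues differed by -2.23 on the log2 scale (edgeR adjusted p = 0.00192).

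**Figure D3:**
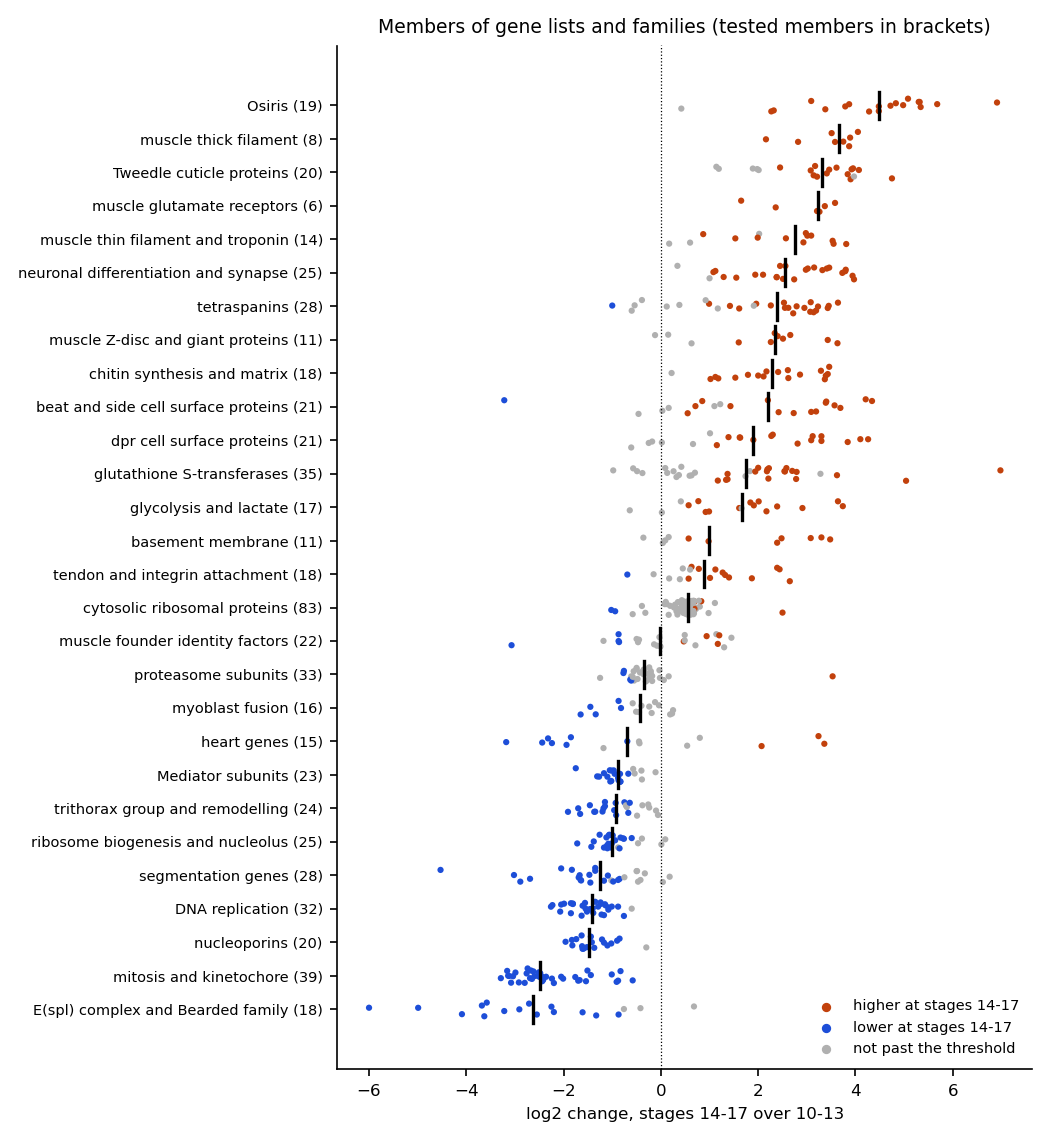
Log2 change, stages 14-17 over 10-13, of the tested members of 28 gene lists and families; each dot is 1 gene and each bar the median. The members of the sarcomere lists and of the Osiris family lie almost all right of 0, and the 39 mitosis genes all lie left of it.

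Genes best known from neurons rose in the mesodermal libraries. Of 25 tested genes of neuronal differentiation and the synapse, 23 rose and none fell, with a median of 2.56 and a summed level of 6803 and 6348 CPM at stages 14-17, against 1695 and 1587 CPM at stages 10-13. nSyb, the synaptic vesicle protein synaptobrevin, had 103 and 54.4 CPM at stages 14-17, against 8.04 and 9.66 CPM at stages 10-13. Syt1, the calcium sensor of vesicle release, had 169.9 and 121 CPM at stages 14-17, against 15.1 and 12.2 CPM at stages 10-13. In both genes replicate 1 of stages 14-17 was the higher of the late libraries, and both late libraries exceeded the early ones. brp, an active zone protein, rose by 2.98, nrv3, a subunit of the sodium pump in neurons, by 3.73, and the ELAV family genes Rbp9 and fne by 2.38 and 1.29. The neuron markers rose along with this group, as given above, and their part in the change of the list was not tested. In neuronal nuclei the median change of the list was -0.34.

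Ion channels and receptors showed the same direction. Of 21 potassium channel genes 12 rose and none fell, with a median of 2.22 and a summed level of 5283 and 6452 CPM at stages 14-17, against 851 and 678 CPM at stages 10-13. galene had 291 and 353 CPM at stages 14-17, against 35.2 and 24.6 CPM at stages 10-13, and sand and Shaw rose by 3.46 and 3.19. Among 15 sodium, calcium and TRP channel genes 9 rose and 1 fell. Ca-alpha1T, a low-voltage calcium channel, had 246 and 231 CPM at stages 14-17, against 30.1 and 20.9 CPM at stages 10-13, and pyx, a TRP channel, rose by 2.20. NaCP60E, a sodium channel gene, was the 1 that fell, by 1.19. The count of 9 became 5 without replicate 2 of stages 10-13 or replicate 1 of stages 14-17. Of 17 nicotinic and GABA receptor genes 10 rose and none fell. Rdl, a GABA-gated chloride channel, had 96.3 and 81.8 CPM at stages 14-17, against 10.9 and 3.32 CPM at stages 10-13, and GABA-B-R1, a metabotropic GABA receptor, rose by 3.43. Among 24 genes of neuropeptides and their processing 9 rose (37.5%) and 3 fell (12.5%), against 24.9% and 22.7% of all tested genes. amon, the prohormone convertase, had 23.9 and 19.2 CPM at stages 14-17, against 1.99 and 1.34 CPM at stages 10-13. The neuropeptide count depended on the libraries, with 4 higher genes without replicate 2 of stages 10-13 and 3 without replicate 1 of stages 14-17. The 3 falls became 1 without replicate 1 of stages 14-17.

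Many genes for immunoglobulin proteins of cell recognition rose. Of the 21 dpr genes, which encode surface proteins that bind the DIP family across synapses, 15 rose and none fell, with a median of 1.90. dpr10, which is known to be made by muscles and recognised by motor neurons, had 198 and 204 CPM at stages 14-17, against 26 and 14.8 CPM at stages 10-13 (log2 change 3.30 ± 0.43, edgeR adjusted p = 0.00102). In neuronal nuclei its change was -1.60. Of 11 DIP genes 6 rose and 1 fell, but their summed level was 354 and 301 CPM at stages 14-17, against 385 and 387 CPM at stages 10-13. The 1 that fell was DIP-alpha, known as a receptor for dpr10, which had 173 and 153 CPM at stages 14-17 and 297 and 266 CPM at stages 10-13, with reads that are uncertain because of overlap. The fall of DIP-alpha was not called without any 1 of the 4 libraries. DIP-kappa had 23.8 and 16.4 CPM at stages 14-17, against 1.74 and 0.873 CPM at stages 10-13. Of 21 beat and side genes, whose proteins attract or repel motor axons, 15 rose and 1 fell. beat-Va had 9.53 and 7.37 CPM at stages 14-17, against 0.561 and 0.349 CPM at stages 10-13. beat-Ic went the other way, with 12.6 and 8.27 CPM at stages 14-17 and 114 and 81.2 CPM at stages 10-13.

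Axon guidance cues and receptors mostly fell or did not pass, with a median of -0.48. Of 21 genes 3 rose (14.3%) and 8 fell (38.1%), against 24.9% and 22.7% of all tested genes. unc-5, a Netrin receptor, had 211 and 191 CPM at stages 14-17, against 504 and 469 CPM at stages 10-13. NetB, a Netrin that muscles display, had 397 and 536 CPM at stages 14-17, against 999 and 872 CPM at stages 10-13, and the Slit receptor gene robo2 fell by 0.90. Its paralogue robo3 rose by 3.45, with 144 and 117 CPM at stages 14-17 and 9.66 and 14.1 CPM at stages 10-13. Of the 8 falls, 6 were called without replicate 2 of stages 10-13, 3 without replicate 2 of stages 14-17, and 2 without replicate 1 of either stage. The higher genes numbered 1 without replicate 1 of stages 10-13 and 2 without each of the others. NetB was not called without replicate 1 of stages 14-17, and robo2 was called without replicate 2 of stages 10-13 but without no other single library of the 4.

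Cuticle and apical matrix genes were among those with the largest fold changes. The Osiris family, a cluster of genes for membrane proteins of cuticle-secreting cells, had 18 of 19 tested members higher and none lower, with a median log2 change of 4.48. Its summed level was 7369 and 5231 CPM at stages 14-17, against 403 and 119 CPM at stages 10-13. Osi6 had 1884 and 1898 CPM at stages 14-17, against 152 and 43 CPM at stages 10-13. Osi7 had 1775 and 1302 CPM at stages 14-17, against 89 and 27.8 CPM at stages 10-13. In both genes replicate 1 of stages 10-13 was over 3 times replicate 2, though it stayed far below the late libraries. Osi16 changed most of all genes that reached 10 CPM on average in either stage: it had 21.8 and 8.36 CPM at stages 14-17, against 0.187 and 0.0582 CPM at stages 10-13, a log2 change of 6.91 ± 0.74 (edgeR adjusted p = 0.000519). Its early levels lie at or below the floor of 3 counts, so the size of that change is not firm. Without any 1 of the 4 libraries 16 members of the family were higher, and the median was 5.45 without replicate 1 of stages 10-13.

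Structural cuticle proteins followed. Of 20 Tweedle genes tested 14 rose and none fell, with a median of 3.31, and of 76 genes with the Rebers-Riddiford chitin-binding motif 38 rose and 4 fell, with a median of 1.87. TwdlG had 92.2 and 66.7 CPM at stages 14-17, against 9.35 and 1.8 CPM at stages 10-13. Cpr78Cc, of the Rebers-Riddiford type, had 17.2 and 17.1 CPM at stages 14-17, against 3.36 and 1.16 CPM at stages 10-13. As in the Osiris family, replicate 1 was the higher of the early libraries, and the Tweedle sum was 1251 and 1040.4 CPM at stages 14-17 against 181 and 26.4 CPM at stages 10-13. The count of higher Rebers-Riddiford genes was 38 without replicate 1 of stages 10-13 and 24 without replicate 2. It was 17 without replicate 1 of stages 14-17 and 23 without replicate 2. Without replicate 1 of stages 10-13 the median was 3.57 for the Rebers-Riddiford genes and 5.49 for the Tweedle genes. The 4 falls became 1 without replicate 1 and 2 without replicate 2 of stages 10-13, and 0 without replicate 1 and 2 without replicate 2 of stages 14-17.

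Chitin synthesis and its matrix rose almost as a whole, with 17 of 18 genes higher, none lower and a median of 2.29. kkv, the chitin synthase, had 377 and 317 CPM at stages 14-17, against 64.2 and 89.6 CPM at stages 10-13 (log2 change 2.17 ± 0.24, edgeR adjusted p = 0.000591). The chitin deacetylase gene serp, which shapes tracheal tubes, rose by 2.11. Its partner verm had 916 and 869 CPM at stages 14-17, against 212 and 233 CPM at stages 10-13. exp, which acts in chitin assembly of the trachea, rose by 2.86 and Cht7, a chitinase, by 3.29. Of 9 genes for apical proteins with a zona pellucida domain 7 rose and none fell. m, which shapes epidermal cells, rose by 2.48, and mey had 256 and 327 CPM at stages 14-17, against 49.4 and 60.5 CPM at stages 10-13. Of 11 tanning and catecholamine genes 9 rose. ple, tyrosine hydroxylase, had 62.3 and 56.8 CPM at stages 14-17, against 7.23 and 2.04 CPM at stages 10-13, and Ddc, dopa decarboxylase, had 10.4 and 8.99 CPM at stages 14-17, against 5.48 and 1.92 CPM at stages 10-13. Ddc was called without replicate 1 of stages 10-13 but without no other single library of the 4.

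Epidermal and tracheal regulators did not rise with these products. Of 14 tested, 1 rose (7.14%) and 5 fell (35.7%), against 24.9% and 22.7% of all tested genes, with a median of -0.55. grh, the epidermal factor that activates cuticle genes, had 238 and 311 CPM at stages 14-17, against 456 and 576 CPM at stages 10-13, and rib, which acts in tracheal and salivary morphogenesis, fell by 1.65. The lower count was 3 without replicate 2 of stages 10-13 and 2 without replicate 1 of stages 14-17, and grh was among the genes lost in both cases. The epidermis markers, with sums given above, had a median log2 change of 1.78 and the tracheal markers one of 0.96, and their part in the change of the cuticle families was not tested.

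**Figure D4:**
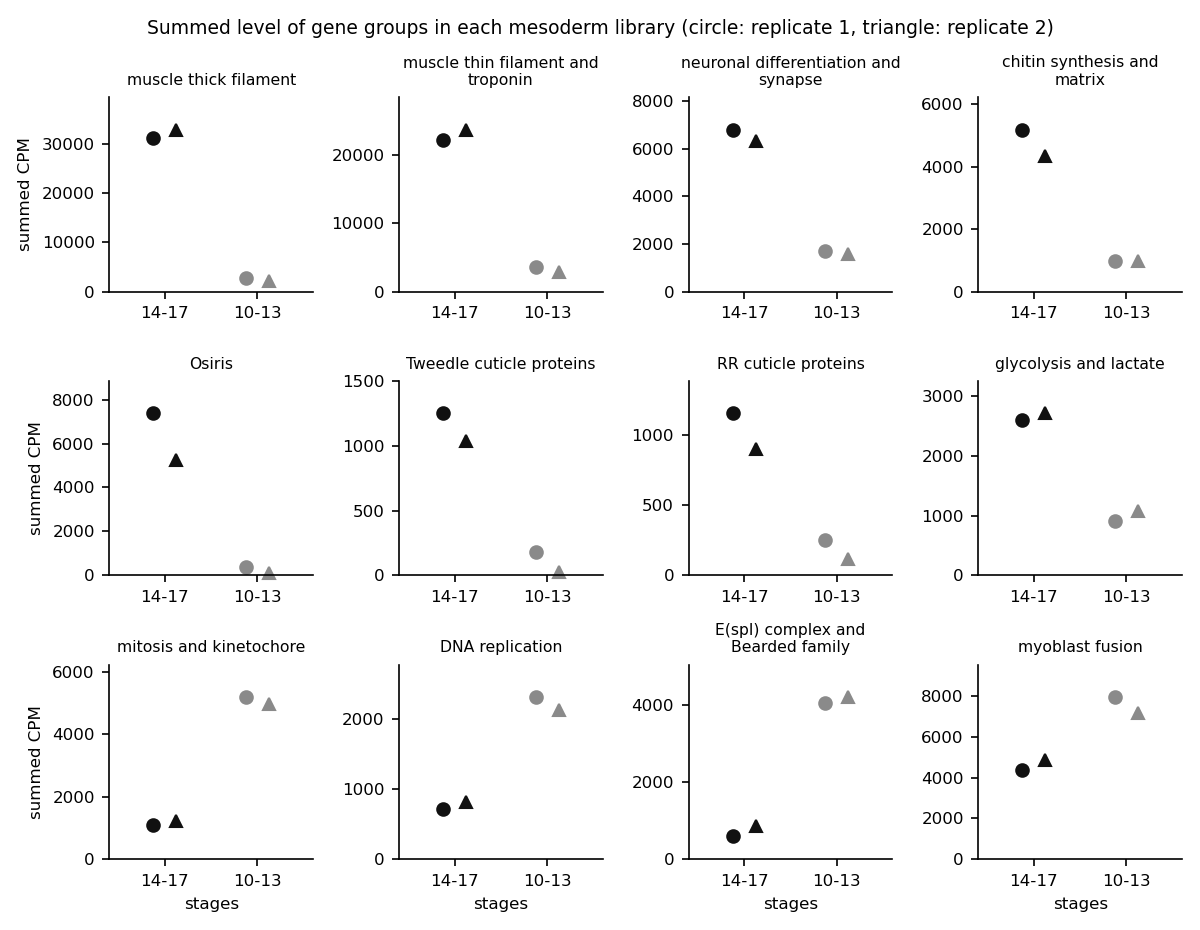
Summed CPM, on linear axes from 0, of 12 gene groups in the 4 mesoderm libraries, with stages 14-17 left of stages 10-13; circles are replicate 1 and triangles replicate 2. The early libraries of the Osiris and Tweedle sums differ by several fold (403 and 119 CPM, 181 and 26.4 CPM), and those of the mitosis sum lie close together (5194 and 4973 CPM).

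Cell division genes fell as a body. All 39 tested genes of mitosis and the kinetochore were lower at stages 14-17, with log2 changes between -3.29 and -0.58 and a median of -2.48. Their summed level was 1084 and 1226 CPM at stages 14-17, against 5194 and 4973 CPM at stages 10-13. Klp61F, the kinesin-5 motor of the spindle, had 15.3 and 18.6 CPM at stages 14-17, against 163 and 140.0 CPM at stages 10-13 (log2 change -3.16 ± 0.20, edgeR adjusted p = 0.000293). asp, a spindle pole protein, had 15.6 and 21.8 CPM at stages 14-17, against 190.3 and 175 CPM at stages 10-13, and Klp3A, another spindle kinesin, fell by 3.04. Of 26 genes of cyclins, Cdks and cell cycle exit 24 fell. The 24 include genes that restrain division, such as dap (-1.77), rux (-1.10) and fzr (-1.64). CycB had 70.5 and 104 CPM at stages 14-17, against 672 and 551 CPM at stages 10-13, and CycA had 97.4 and 122 CPM at stages 14-17, against 593 and 496 CPM at stages 10-13. Both B and A cyclins drive entry into mitosis, and in both genes the late libraries lay below the early ones by a log2 of over 2. Of 32 DNA replication genes 31 fell, with a median of -1.41. Mcm5 and Mcm6, subunits of the replicative helicase, fell by 2.05 and 1.81. In neuronal nuclei the median changes were -0.30 for mitosis and -0.17 for replication.

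General nuclear machinery fell too. Of 20 nucleoporin genes 19 fell, with a median of -1.48 and a summed level of 1132 and 1205 CPM at stages 14-17, against 2847 and 2733 CPM at stages 10-13. Nup160, a scaffold nucleoporin, had 51.2 and 55.2 CPM at stages 14-17, against 166 and 156 CPM at stages 10-13. Of 13 genes of cohesin and chromosome structure 11 fell, among them Cp190, an insulator protein, with 224 and 273 CPM at stages 14-17, against 722 and 714 CPM at stages 10-13. SMC1, a cohesin subunit, fell by 1.47. The cohesin count was 7 without replicate 1 of stages 14-17.

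Transcription machinery fell with small changes per gene. Of 29 RNA polymerase subunit genes 21 fell, with a median of -1.07, and of 23 Mediator subunit genes 18 fell, with a median of -0.88. Polr2B, the second largest subunit of RNA polymerase II, had 70.8 and 84.2 CPM at stages 14-17, against 266 and 227 CPM at stages 10-13. Polr1A, the largest subunit of RNA polymerase I, fell by 1.43, Taf8, a TFIID subunit, by 1.65 and MED16, a Mediator subunit, by 1.75. Of 23 general transcription factor genes 14 fell. These counts dropped most without replicate 1 of stages 14-17, to 11 polymerase, 5 Mediator and 4 general factor genes. Mediator stood at 9 without replicate 1 of stages 10-13 and at 11 without either replicate 2, and the general factors at 6 without replicate 1 and 7 without replicate 2 of stages 10-13. Chromatin regulators did likewise, with 16 of 24 trithorax and remodelling genes, 13 of 19 Polycomb genes and 11 of 18 histone modifier genes lower. Iswi, the ATPase of several nucleosome remodellers, had 81.9 and 93.9 CPM at stages 14-17, against 339 and 321 CPM at stages 10-13. Caf1-55, a histone-binding subunit shared by several chromatin complexes, had 30.2 and 31.8 CPM at stages 14-17, against 95.5 and 80 CPM at stages 10-13. Su(z)2 was the 1 Polycomb gene that rose, by 1.33, and was not called without replicate 2 of stages 10-13 or replicate 1 of stages 14-17. Without replicate 1 of stages 10-13 the Polycomb count was 6 and the histone modifier count 7, and without replicate 1 of stages 14-17 they were 4 and 5. The Polycomb count was 7 without replicate 2 of stages 10-13.

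In RNA processing, 20 of 25 ribosome biogenesis genes fell, with a median of -1.01, and 11 without replicate 1 of stages 14-17. Surf6, a nucleolar protein, had 31.1 and 42 CPM at stages 14-17, against 110.2 and 131 CPM at stages 10-13. Of 30 splicing genes 11 fell (36.7%, against 22.7% of all tested genes) and 1 rose. Sf3b1, a core component of the U2 complex, fell by 1.02. The splicing count was 6 without replicate 1 of stages 10-13 and 5 without replicate 1 of stages 14-17. Ribosomal proteins themselves parted from their assembly factors. Of 83 genes with the symbol of a cytosolic ribosomal protein 4 rose (4.82%) and 2 fell (2.41%), against 24.9% and 22.7% of all tested genes. The median was 0.56. The largest of the 4 rises was 2.50, in RpL22-like. The 2 that fell were RpS5b (-0.94) and RpLP0-like (-1.02), which is named only for its likeness to a ribosomal protein. None of the 4 rises was called without replicate 1 or 2 of stages 10-13 or replicate 1 of stages 14-17, and 1 was without replicate 2 of stages 14-17. The 2 falls became 0 without replicate 2 of stages 10-13 or replicate 1 of stages 14-17, and 1 without replicate 2 of stages 14-17. Of the 69 mitochondrial ribosomal protein genes 1 rose, and was called without replicate 1 of stages 14-17 but without no other single library. None of 13 genes of the mitochondrial genome passed, and their share of all counts was 1.51% and 0.999% at stages 14-17 and 1.14% and 0.874% at stages 10-13.

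Patterning genes of the early embryo fell. The list of the Enhancer of split complex and the Bearded family, direct targets of Notch signalling or its modulators, had 18 genes. Of these 15 fell and none rose, with a median of -2.63. Their summed level was 593 and 852 CPM at stages 14-17, against 4054 and 4213 CPM at stages 10-13. The list also holds hry, dpn and Hey, which belong to neither group. Of the latter, dpn fell by 2.25 and is counted in the 15, and hry and Hey did not pass. Tom, a Bearded family gene that is active in mesoderm, had 82.6 and 162 CPM at stages 14-17, against 1391 and 1533 CPM at stages 10-13 (log2 change -3.58 ± 0.35, edgeR adjusted p = 0.000409). Brd had 5.4 and 11.8 CPM at stages 14-17, against 273 and 272 CPM at stages 10-13, and E(spl)m4-BFM had 8.97 and 11.7 CPM at stages 14-17, against 178 and 174 CPM at stages 10-13. E(spl)m8-HLH, a transcriptional repressor of the complex, fell by 2.91. N, the Notch receptor itself, had 412 and 619 CPM at stages 14-17, against 2494 and 2408 CPM at stages 10-13, and neur, the ubiquitin ligase that activates Notch ligands, fell by 1.46. Of 12 core Notch pathway genes 7 fell and none rose.

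Of 28 segmentation genes 19 fell and none rose, with a median of -1.26. gsb, a segment polarity gene, had 5.96 and 11.2 CPM at stages 14-17, against 71.4 and 68 CPM at stages 10-13, and btd, a head gap gene, fell by 2.89. Of 16 neuroblast and proneural genes 12 fell and none rose. ato, a proneural factor of sense organs, had 0.238 and 0.27 CPM at stages 14-17, against 12.8 and 13.2 CPM at stages 10-13. wor, a Snail family gene of neuroblasts, fell by 2.24. Of 13 Hox genes and their cofactors 2 were higher and 2 lower. That is 15.4% each way, against 24.9% and 22.7% of all tested genes. The median log2 change of the list was -0.42. Its summed level was 5992 and 7766 CPM at stages 14-17, against 9392 and 10284 CPM at stages 10-13. Ubx had 367 and 449 CPM at stages 14-17, against 876 and 837 CPM at stages 10-13 (log2 change -1.07 ± 0.20, edgeR adjusted p = 0.00387), and Abd-B fell by 0.79. Scr and tio rose by 0.47 and 1.03, but Scr was not called without any 1 of the 4 libraries, nor tio or Abd-B without replicate 1 of stages 14-17. Without replicate 1 of stages 14-17 none of the Hox list was higher and 1 was lower, and without each other library 1 was higher and 2 were lower.

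Of 10 Hedgehog pathway genes 7 fell and none rose (70% lower, against 22.7% of all tested genes), with a median of -0.93. ptc, the receptor and a target of the pathway, had 315 and 498 CPM at stages 14-17, against 1555 and 1306 CPM at stages 10-13. smo, the signal transducer, fell by 1.57. The count was 4 without replicate 1 of stages 10-13 or replicate 2 of stages 14-17. Of 20 Wnt pathway genes 7 fell (35%) and 2 rose (10%), against 22.7% and 24.9% of all tested genes. wntD, a Wnt that limits Toll signalling, had 0.159 and 0.18 CPM at stages 14-17, below the floor, against 17.8 and 16.6 CPM at stages 10-13. Notum, a Wnt inhibitor, fell by 1.48 and pan, the TCF factor of the pathway, rose by 0.79. The lower Wnt count was 4 without replicate 1 of either stage, and the 2 rises were lost without any 1 of the 4 libraries. In the EGF receptor list 6 of 12 fell, 2 without replicate 1 of stages 14-17, and 2 rose. These shares of 50% lower and 16.7% higher stand against 22.7% and 24.9% of all tested genes. In the same list pnt, an ETS effector, fell by 1.40 and S, the trafficking factor Star, by 1.31. vn, the neuregulin that muscles send to tendon cells, rose, with 467 and 524 CPM at stages 14-17, against 242 and 210.4 CPM at stages 10-13. Among 19 BMP and activin genes 4 rose (21.1%) and 6 fell (31.6%), not far from the 24.9% and 22.7% of all tested genes. wit, a type II receptor, had 45.7 and 34.6 CPM at stages 14-17, against 7.6 and 8.15 CPM at stages 10-13, while tld, a protease that releases BMPs, fell by 2.51. gbb, the BMP that muscles send to motor neurons later in development, fell by 1.21. The BMP counts became 2 higher and 3 lower without replicate 1 of stages 10-13, and 3 lower without replicate 1 of stages 14-17. In the JAK/STAT list 4 of 8 genes fell (50%) and 2 rose (25%), the latter near the 24.9% of all tested genes. Both counts depended on single libraries. The median was -0.82, and between -0.95 and -0.74 without any 1 of the 4 libraries. Socs36E, a feedback inhibitor and target of the pathway, had 108 and 103 CPM at stages 14-17, against 385 and 330.0 CPM at stages 10-13. The receptor gene dome fell by 1.42.

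Of 22 ecdysone genes 6 were higher and 6 lower, 27.3% each way, near the 24.9% and 22.7% of all tested genes. ImpE2, induced by the hormone in imaginal discs, had 572 and 733 CPM at stages 14-17, against 53.9 and 56.4 CPM at stages 10-13. ImpE1 and the nuclear receptor gene Eip78C rose by 2.01 and 2.04. dib, which encodes a late enzyme of ecdysone synthesis, had 0.318 and 0.809 CPM at stages 14-17, against 9.04 and 9.66 CPM at stages 10-13. The nuclear receptor genes Eip75B and Hr39 fell by 1.32 and 1.31. The lower genes numbered 3 without replicate 1 of stages 14-17. In the apoptosis list 5 of 13 rose (38.5%) and 3 fell (23.1%). Buffy, a Bcl-2 family gene, had 34.9 and 33.9 CPM at stages 14-17, against 4.42 CPM in both libraries of stages 10-13. hid, a killer gene, fell by 0.95, a call lost without replicate 1 of stages 14-17, and Diap1, the caspase inhibitor also called thread, did not pass with a log2 change of -0.23 (edgeR adjusted p = 0.287). The 5 rises became 2 without replicate 1 of either stage and 3 without replicate 2 of stages 10-13.

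Genes of energy metabolism rose in some lists and not in others. Of 17 genes of glycolysis and lactate metabolism 13 were higher and none lower, with a median of 1.66 and a summed level of 2609 and 2712 CPM at stages 14-17, against 918 and 1079 CPM at stages 10-13. Pfk, phosphofructokinase, had 282 and 305 CPM at stages 14-17, against 52.9 and 59.4 CPM at stages 10-13 (log2 change 2.39 ± 0.20, edgeR adjusted p = 0.000293). Ldh, lactate dehydrogenase, had 261 and 317 CPM at stages 14-17, against 54 and 74.3 CPM at stages 10-13, and Ald1, an aldolase, rose by 1.84. The count of 13 was 8 without replicate 1 of either stage. Of 15 genes listed for the tricarboxylic acid cycle 7 rose and none fell. The 7 include Idh, the NADP-dependent isocitrate dehydrogenase, and Mdh1, the cytosolic malate dehydrogenase, which are not the enzymes of the cycle itself. Idh had 131 and 127 CPM at stages 14-17, against 14.8 and 15.2 CPM at stages 10-13. Of the subunits of the NAD-dependent enzyme of the cycle, Idh3g rose by 1.27. Idh3a and Idh3b, at 0.67 and 0.47, did not pass. Ogdh, a subunit of the oxoglutarate dehydrogenase complex, rose by 1.83. Of 11 genes of fatty acid oxidation 7 rose and 1 fell. Mtpbeta, of the mitochondrial trifunctional protein, rose by 2.31 and whd, a carnitine palmitoyltransferase, by 1.09. srl, the PGC-1 homologue that activates mitochondrial genes, was the 1 that fell, with 157 and 148 CPM at stages 14-17, against 533 and 513 CPM at stages 10-13. The 7 rises in fatty acid oxidation became 4 without replicate 1 of stages 14-17 and 3 without each of the other libraries. Of 32 complex I genes 10 rose and of 13 ATP synthase genes 5 rose, but none of these was called without any 1 of the 4 libraries. The complex I share of 31.2% lies near the 24.9% of all tested genes. Of 12 cytochrome c oxidase genes 3 rose (25%) and none fell, and of 8 genes of arginine kinase and energy buffering 1 rose and 1 fell. The counts of both lists depended on single libraries. Without any 1 of the 4 libraries the median was 0.47 to 0.56 for cytochrome c oxidase and 0.07 to 0.26 for energy buffering.

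**Figure D5:**
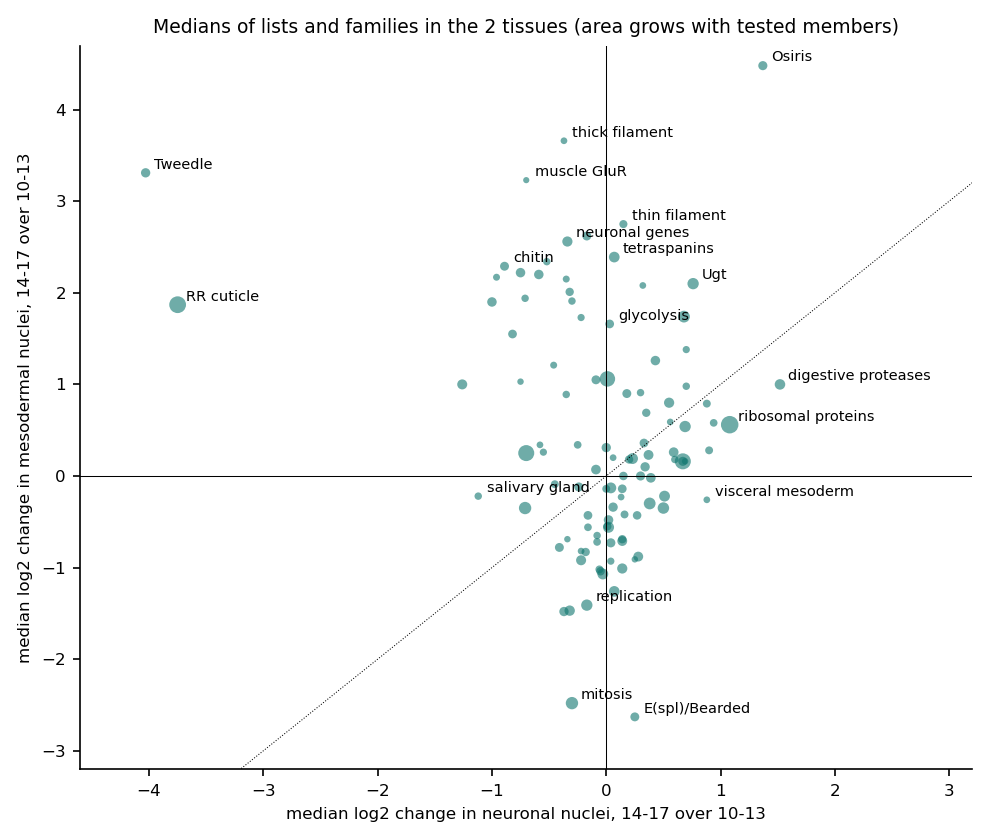
Median log2 change of each gene list and family, stages 14-17 over 10-13, in mesodermal nuclei (y axis) against neuronal nuclei (x axis); the dotted line marks equal medians and the area of a point grows with the number of tested genes. The thick filament, thin filament and Z-disc lists lie between -0.52 and 0.15 on the x axis and at 2.34 or more on the y axis, and the Tweedle family lies at 3.31 in mesodermal and -4.03 in neuronal nuclei.

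Several enzyme and membrane families rose. Of 35 glutathione S-transferase genes 19 rose and none fell, with a median of 1.74, and 1 fell without replicate 1 of stages 14-17. GstS1 had 312 and 264 CPM at stages 14-17, against 46.9 and 36.3 CPM at stages 10-13. Of 32 UDP-glycosyltransferase genes 20 rose and 2 fell. Of 64 genes with a Cyp symbol, called P450 genes here, 28 rose and 6 fell. Among the 64 are Cyp1 and Cyp40, which encode cyclophilins and not P450 enzymes, and Cyp40 was 1 of the 6 (log2 change -0.84). Cyp4e1 had 31.2 and 33.7 CPM at stages 14-17, against 2.43 and 3.14 CPM at stages 10-13, and Ugt317A1 rose by 2.11. Without replicate 2 of stages 10-13 the count of higher UDP-glycosyltransferase genes was 12 and that of P450 genes 18, and without replicate 2 of stages 14-17 the first was 13. The 2 lower UDP-glycosyltransferase genes became 1 without any 1 library, and the 6 lower P450 genes became 2 without replicate 1 of stages 14-17 and 3 without each of the others. Of 28 tetraspanin genes, which encode membrane proteins with 4 passes that gather partners into domains, 19 rose and 1 fell, with a median of 2.39. Tsp74F had 73.1 and 62.5 CPM at stages 14-17, against 8.54 and 6.81 CPM at stages 10-13. Tsp86D, which is known to promote Notch signalling with its paralogues, was the 1 that fell, with 48.8 and 59.3 CPM at stages 14-17 and 122 and 93.5 CPM at stages 10-13, and was not called without replicate 1 of either stage. Of 8 genes of the Niemann-Pick type C2 family, which bind sterols, 5 rose, 3 without replicate 2 of stages 10-13. Its member Npc2b had 33.8 and 33.7 CPM at stages 14-17, against 1.99 and 1.63 CPM at stages 10-13. Of 21 vacuolar ATPase genes 12 rose and 2 fell. The rises became 6 without replicate 1 of stages 10-13 and 5 without replicate 1 of stages 14-17, and the falls became 1 without each library but replicate 2 of stages 10-13. Of 25 genes of chaperones and stress 12 rose and none fell, 7 without replicate 1 of stages 10-13 or replicate 2 of stages 14-17. Of the 12, Cat, GstD1, MtnA, Sod1, Sod2 and Trx2 act in detoxification, metal binding or redox balance and are not chaperones. Of 23 heat shock protein genes 4 rose (17.4%, against 24.9% of all tested genes) and none fell, with a median of 0.23. This count depended on single libraries, and the median was -0.04 without replicate 1 and 0.70 without replicate 2 of stages 10-13. stv, a BAG co-chaperone needed to maintain the sarcomere, had 149.9 and 164 CPM at stages 14-17, against 20.1 and 18.3 CPM at stages 10-13.

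The 10 genes with the largest rises, among those that reached 10 CPM in the higher stage, were Osi16, tpr, Osi18, Osi9, Osi19, apn, CG12723, CG42587, Osi20 and CG32548, with log2 changes from 6.91 to 4.99. Of the 51 called genes with a rise of a log2 of 5 or more, 45 had a mean under 1 CPM at stages 10-13, so that such large changes mostly start near the floor. The 10 largest falls were in CG10035, wntD, CG45691, BobA, CG4440, ato, CG14689, CG13465, CG15480 and Brd, from -6.82 to -4.99. CG10035, a gene with no assigned name, had 0.873 and 1.17 CPM at stages 14-17, against 112 and 118 CPM at stages 10-13. CG4440 had 2.3 and 3.69 CPM at stages 14-17, against 195 and 172 CPM at stages 10-13. Per kilobase, Tom lost most, with 127 CPM per kb at stages 14-17 against 1518 at stages 10-13, and Obp99a, an odorant-binding protein gene, came next with 315 against 1605 CPM per kb. Genes known only by a CG number made up 42.9% of the higher genes, 30.9% of the lower genes and 37.3% of all tested genes. The median gene span was 3958 bases among higher genes, 2544 among lower genes and 2641 among all tested genes, and 13.2% of higher, 16.2% of lower and 15.4% of all tested genes lay on the X chromosome.

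Changed genes also lay side by side. Among tested genes in chromosome order on BDGP6, 3 runs of 11 neighbours rose together. The run at chr3R:6187315-6282495, from NPFR to Osi12, held 10 Osiris genes and had a median log2 change of 3.87. A run at chr3R:4235217-4304604, from Gel to cpx, held TwdlF, TwdlG and TwdlV and had a median of 2.78. The last lay at chr2L:20822828-20871565, from CG9331 to CG14401, with a median of 2.49. A run of 10 held the Tsp42E tetraspanins from Tsp42Ef to Tsp42En, with a median of 2.96. The longest runs of falls had 7 genes. One, at chr3L:14943730-14984486 from CG13465 to CG5114, held BobA, Tom, Brd and Ocho with a median of -3.58, and the other, at chr3R:29664779-29680257 from ppk21 to Cap-D2, held Obp99a with a median of -3.14. The longest run over all genes depends on the spacing of the tested genes, and genes in a run may share reads or regulation, which was not tested.

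The stage change was set against that in the neuronal libraries of the same stages. The change differed between the tissues for 3730 genes (35.4% of those tested), by a test of the difference of the stage changes in the same fit. Of the 2629 genes that rose in mesodermal nuclei, 1770 (67.3%) had a significantly higher change there than in neuronal nuclei, and of the 2398 that fell, 1252 (52.2%) had a significantly lower one. Mhc differed by 4.36 on the log2 scale (edgeR adjusted p = 0.000744), and all 8 thick filament genes and all 6 glutamate receptor genes differed in that direction. N differed by -2.12 (edgeR adjusted p = 0.00324) and Klp61F by -2.55 (edgeR adjusted p = 0.000884), and 34 of the 39 mitosis genes had a lower change in mesodermal nuclei. For ImpE2 the changes of 3.56 in mesodermal and 2.70 in neuronal nuclei did not differ beyond their error (edgeR adjusted p = 0.258). Among cytosolic ribosomal protein genes none had a higher change in mesodermal nuclei and 5 had a lower one, with medians of 0.56 in mesodermal and 1.08 in neuronal nuclei. Both tissues entered 1 fit and shared its estimate of the spread. The number of genes whose change was higher in mesodermal nuclei was 2175, and 1405 without replicate 1 of stages 14-17 in mesoderm. The number with a lower change was 1555 and is less firm. Without 1 mesoderm library it was 784 and 834 without replicates 1 and 2 of stages 10-13, and 595 and 966 without replicates 1 and 2 of stages 14-17. Without replicate 1 of the neuronal libraries it was 1018 for stages 10-13 and 2478 for stages 14-17.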

How the data were processed

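Total RNA of nuclei isolated by INTACT was sequenced, per the labels' protocols. The deposited tables hold raw counts per gene, made by the authors with HTSeq, per the submitters' processing notes. Those notes list FastQC too, and as builds both dm6 and BDGP6. The aligner, the annotation and the use of strand were not given in the sources used here. Symbols, positions and exon lengths came from Ensembl annotation release 115 on BDGP6, which gave a symbol to 98.4% of genes. Genes overlapped over 40% or more of their span are called uncertain.

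All 8 wild-type libraries (12970816 to 36150646 counts) entered 1 edgeR fit by group, with TMM normalisation, filterByExpr (minimum count 10, total 15), 4 residual degrees of freedom and a common coefficient of variation of 0.277. Contrasts were stages 14-17 minus 10-13 in each tissue and their difference, tested by the quasi-likelihood test of edgeR at 5% after Benjamini-Hochberg adjustment. The filter left out 3607 genes. A value after ± is the standard error of a log2 change, and floors of 3 counts cover counting error only. The script was checked on simulated counts.

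Lists (62, by symbol, with 1133 symbols matched and 66 not) and 47 families with at least 5 tested members were described by counts and medians, with no test. Among the symbols not matched, and so absent from the counts, were trol of the basement membrane and wupA of the thin filament. Dl and Psn of the Notch list and wg of the Wnt and segmentation lists were absent too. The lists and comparisons were chosen with earlier results of these data known, and some lists were corrected afterwards. Named genes are the 10 largest rises and 10 largest falls of at least 10 CPM with no overlap between stages, and the 10 largest gains and losses per kilobase. Also named are up to 3 members per list and direction with the smallest adjusted p, and Ubx, twi, Mef2 and the cell type markers. Diap1, also called thread, was named outside this rule. Samples with the same replicate number deviated together from their group means across genes (correlation 0.163 in mesoderm, 0.145 in neuronal), but the labels give no shared origin and there are only 2 numbers, so no block was used. Alternatives were other size factors, filters and tests, a replicate block, a minimum fold and single libraries left out. R 4.3.3, edgeR 4.0.16, limma 3.58.1, DESeq2 1.42.0, Python 3.11.15, pandas 2.3.3, numpy 2.4.6 and matplotlib 3.10.9 were used. No sequences were used here.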

Additional observations from a re-analysis of the deposited data

Results flagged for a closer look

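The stage change differed between mesodermal and neuronal nuclei for many genes, by a test of the difference itself in the edgeR fit. It was higher in mesodermal nuclei for 2175 genes and lower for 1555. Of the genes named in the text 83 had a higher and 73 a lower change in mesodermal nuclei. For 522 genes the call was higher in mesodermal and lower in neuronal nuclei, and for 57 genes it was lower in mesodermal and higher in neuronal nuclei.

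Of the named genes, 24 changed in opposite directions in the tissues, with the differences below given as mesodermal minus neuronal log2 change. Among muscle and matrix genes, the difference was 4.39 for Msp300, 3.31 for sls, 3.84 for stv, 5.32 for Mp and 3.65 for CadN2. Among channels, receptors and surface proteins it was 4.09 for Ca-alpha1T, 5.72 for Rdl, 4.90 for dpr10, 5.14 for amon and 4.64 for Tsp74F. Cuticle genes had the largest differences, at 7.99 for TwdlV, 7.83 for Cpr78Cc and 6.37 for TwdlG. For TwdlV the log2 change was 4.75 in mesodermal and -3.24 in neuronal nuclei. Tanning and chitin genes followed, with 5.77 for Ddc, 5.64 for ple, 4.47 for exp, 3.39 for both serp and verm, and 2.97 for kkv. Pfk differed by 3.95 and Buffy by 4.25. The genes that fell in mesodermal and rose in neuronal nuclei were bin at -2.23, sing at -2.78 and DIP-alpha at -1.75, the last 2 with uncertain reads. Cuticle genes were also among the genes in which replicate 1 of stages 10-13 in mesoderm stood above replicate 2, and the part of this library in the differences was not tested.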

How the results depend on the processing

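None of the 178 named genes past the threshold changed sign under any of the 18 other settings, and 159 stayed past it under all that tested them. The counts of genes were within 1.5 times the reported ones except as follows. Against a minimum fold of 1.5 there were 1318 lower genes and 755 genes with a lower change in mesodermal than in neuronal nuclei, and leaving out single libraries gave 1712 to 3223 higher, 1150 to 3071 lower, 1405 to 2783 with a higher change and 595 to 2478 with a lower change. These settings change the hypothesis or the number of libraries. With the replicate number as a block the counts were 2695 higher and 2260 lower, and 2130 and 1353 for the difference, and of the named genes Scr lost its call; same-numbered samples share only a number. DESeq2 called 2824 higher and 2279 lower genes. Scaling by library totals alone moved the median of all tested genes by -0.16, so that 44.2% of called genes were higher in place of 52.3%, and Ddc, Scr and pan were no longer called. Scr was also lost with either other filter, Scr and Ddc with limma-voom and Mef2 with median-ratio size factors (the cause was not tested). None of the 70 list medians of 0.5 or more either way changed sign. Without overlapped genes 2493 were higher and 2284 lower. Of named genes not past the threshold, apolpp was called by DESeq2 (adjusted p = 0.00801), with only the mesoderm libraries (0.00123), and without either neuronal library of stages 14-17. With 2 libraries a stage, and neuronal libraries that set part of the spread, small changes stay uncertain. Counts of list members without each mesoderm library were chosen after seeing the data. Promoter motif shares were not run, since no promoter sequences were used here.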
